A study of Mus musculus with 12 samples.

Results

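Ptch1 encodes Patched1, the membrane receptor to which Shh binds. The data on it are 986 of the 48316 probes on the array, namely every non-control probe in the tiled region of mouse chromosome 13 from 63595947 to 63679023 (mm9), which was chosen because it covers the gene. Ptch1 (ENSMUSG00000021466.5) lies on the minus strand from 63610261 to 63674474, so its 5′ end is at the high coordinate, and only 4549 bp upstream of that end were tiled. The probes are 60 bases long with a median step of 60 bp, and the largest gap is 766 bp. The other gene in the region is Fancc (ENSMUSG00000021461.9, minus strand, 63406017 to 63598586), a DNA repair gene whose 5′ end falls at the far edge.

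Native chromatin of 46c mouse embryonic stem cells (ESCs, a line with a Sox1-GFP reporter) and of neural progenitor cells (NPCs) made from them in N2B27 medium was cut with MNase and immunoprecipitated for H3K27me3, and the precipitated and the input DNA were put on the same array after amplification and labelling. The 12 arrays fall into 6 conditions, each with arrays R1 and R2. They were ESCs with the eGFP control, ESCs transfected with a TALE-Vp64 activator aimed at the Shh promoter (tShh-Vp64), at the brain enhancer SBE6 (tSBE6-Vp64), at SBE2 (tSBE2-Vp64) or at both enhancers (tSBE(6+2)-Vp64), and NPCs, for which the labels give no construct and no day. None of these constructs is aimed at Ptch1. R1 and R2 were averaged to 1 sample, because the labels of eGFP, tShh-Vp64 and tSBE2-Vp64 place both in the same biological replicate and the other labels do not say, so the tests below rest on 6 samples and n is 1 for each condition.

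The values are log2 ratios of Cy5 over Cy3, centred on the median of each array. The labels assign Cy3 to the ChIP DNA and Cy5 to the input, whereas the ratios deposited as ChIP over input followed Cy5 over Cy3, with correlations across all probes of 0.898 to 0.944 per condition. The direction of the deposited ratios is used here, and if the dye labels hold every sign below is reversed and every order of levels or ranks is inverted. Over the 986 probes the R1 and R2 arrays of a condition correlated at 0.839 (tSBE(6+2)-Vp64) to 0.887 (tSBE2-Vp64). The arrays of eGFP, tShh-Vp64, tSBE6-Vp64 and tSBE2-Vp64 were on 1 slide, and those of NPCs and tSBE(6+2)-Vp64 on another, which was scanned separately. The SD of the log2 ratio over all probes was 0.89 to 1.08 on the first slide, 1.19 and 1.24 for tSBE(6+2)-Vp64, and 1.38 and 1.41 for NPCs. In the Ptch1 region, 68.0% to 97.7% of probes were well above background in Cy3 and 74.6% to 90.8% in Cy5.

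Hedgehog signalling works by relief of a block. Without ligand, Patched1 holds Smoothened inactive, and when Shh binds Patched1 the Gli transcription factors switch on their targets. Ptch1 is itself such a target, so its transcription is commonly read as a sign of pathway activity and feeds back on it. H3K27me3 is the histone mark laid down by Polycomb repressive complex 2, and in ESCs it typically covers CpG-rich promoters of developmental genes that are not, or only weakly, expressed. Cells of the neural tube respond to Shh in a graded manner, and Ptch1 is induced in those that respond.

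The annotations place starts of Ptch1 at several positions, and the profile differs between them. The gene's 5′ end in GENCODE is the start of transcript Ptch1-203. The coding transcript Ptch1-201 (in the CCDS set) starts at 63666828, 7646 bp inside the gene, Ptch1-204 at 63665634 and the short Ptch1-202 at 63615625. The RefSeq promoter sequence of Ptch1, given for build GRCm38.p6, matched mm9 at 1 place, which puts the RefSeq start at 63667043, or 7431 bp inside the GENCODE gene. The 250 bases before each of these 2 starts are shown on the gene's strand because both are CpG-rich while their surroundings differ in log2 ratio. CpG is in capitals.
GENCODE 5′ end, chr13:63674475-63674724, minus strand: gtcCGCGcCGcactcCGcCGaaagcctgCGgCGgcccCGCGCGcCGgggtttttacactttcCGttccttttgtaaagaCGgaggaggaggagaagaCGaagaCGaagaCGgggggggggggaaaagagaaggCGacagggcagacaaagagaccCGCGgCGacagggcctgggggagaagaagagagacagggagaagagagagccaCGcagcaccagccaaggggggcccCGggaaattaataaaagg
RefSeq start, chr13:63667044-63667293, minus strand: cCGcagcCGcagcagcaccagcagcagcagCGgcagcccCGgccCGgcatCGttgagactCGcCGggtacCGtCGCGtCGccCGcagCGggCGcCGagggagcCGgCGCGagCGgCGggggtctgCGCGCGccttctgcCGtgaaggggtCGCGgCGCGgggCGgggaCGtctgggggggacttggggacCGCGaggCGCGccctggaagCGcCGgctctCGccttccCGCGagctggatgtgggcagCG
The stretch before the GENCODE 5′ end held 22 CpG and was 62.8% G or C. That before the RefSeq start held 41 CpG and was 78.4% G or C. Over the same 250 bases of 32851 RefSeq promoters the median was 6 CpG, with 14.8% holding at least 22 and 1.09% at least 41.

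Single probes differed widely within the window around the 5′ end. The 3 probes with the highest mean over the 6 conditions in this window are shown beside the 3 with the lowest mean within 1 kb of the 5′ end, leaving out probes that touch an annotated untranslated stretch, with CpG again in capitals. They were picked by their values and illustrate the range.
High probe 1, chr13:63672836-63672895: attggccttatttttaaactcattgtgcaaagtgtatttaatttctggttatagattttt
High probe 2, chr13:63673249-63673308: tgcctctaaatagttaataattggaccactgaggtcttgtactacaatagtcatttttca
High probe 3, chr13:63673109-63673168: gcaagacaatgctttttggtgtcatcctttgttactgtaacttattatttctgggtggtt
Low probe 1, chr13:63673909-63673968: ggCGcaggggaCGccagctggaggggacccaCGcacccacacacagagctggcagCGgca
Low probe 2, chr13:63674889-63674948: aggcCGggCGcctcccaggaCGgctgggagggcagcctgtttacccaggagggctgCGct
Low probe 3, chr13:63675009-63675068: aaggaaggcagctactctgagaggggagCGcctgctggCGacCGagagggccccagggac
High probe 1, 1609 bp inside the gene, had a mean log2 ratio of 4.04 over the 5 ESC populations and 5.90 in NPCs. Low probe 1, 536 bp inside the gene, had -0.67 and -0.49. The 3 high probes were 25.0% to 36.7% G or C with 0 CpG, and the 3 low probes 68.3% to 73.3% with 3 or 4 CpG.

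The letters GACCACCCA, the core of the Gli binding motif, and their reverse complement TGGGTGGTC were searched on both strands. Neither of the 250-base stretches above held a match, as against 0.225% of RefSeq promoters that did (74 of 32851). The whole tiled region held 3 matches, at 299 bp upstream of the 5′ end (chr13:63674773-63674781) and at 3881 bp (chr13:63670593-63670601) and 6731 bp (chr13:63667743-63667751) inside the gene. The 2 kb tiles around them had mean log2 ratios in the ESC populations of 0.63, 1.25 and 0.01, in that order. Of the 5 kb tiles on the array, 4.26% held a match (41 of 963), and of the 17 Ptch1 tiles 2 did. A match of letters is not evidence of binding.

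Along the locus, high values lay at the 5′ end and low values in the rest of the gene, in all 6 conditions. Of the 17 tiles of 5 kb, 12 were below 0 in all 6 conditions, 3 were above 0 in all 6, and 2 were mixed. The tile that spans the 5′ end and the first 4.47 kb of the gene had 1.53 in eGFP, 1.51 in tSBE2-Vp64, 1.09 in tSBE6-Vp64, 1.75 in tSBE(6+2)-Vp64, 1.22 in tShh-Vp64 and 2.27 in NPCs. The last tile upstream, which the tiling cuts short, was as high, with 1.83, 1.73, 1.36, 2.06, 1.37 and 2.30 in the same order. The NPC value was the highest and the tSBE6-Vp64 value the lowest in both. The tile with the lowest ESC mean, 24.5 to 29.5 kb inside the gene, lay between -0.92 and -1.10 in the ESC populations and at -1.12 in NPCs. Since the high values reach the upstream edge of the tiled stretch, the full extent of the block at the 5′ end was not measured.

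**Figure D1:**
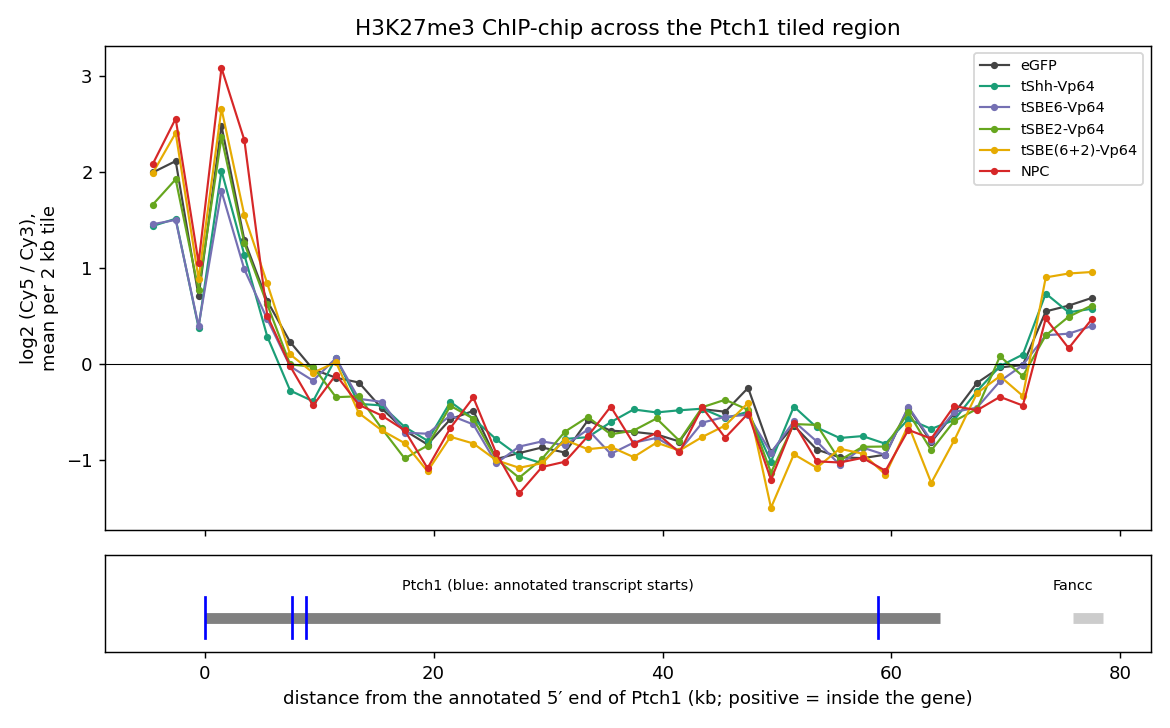
Mean log2 (Cy5 / Cy3) in 2 kb tiles (y axis) against the distance from the GENCODE 5′ end of Ptch1 in kb (x axis, positive inside the gene), 1 line per condition (mean of R1 and R2), with a map of Ptch1, its annotated transcript starts in blue, and the end of Fancc. All 6 lines are high around the 5′ end, with a dip at it, fall below 0 within the gene, and rise again towards Fancc.

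In 2 kb tiles, those at 1 or above on R1 and on R2 alike lay only at the 5′ end of the region. They covered 8 kb in eGFP, tShh-Vp64, tSBE2-Vp64, tSBE(6+2)-Vp64 and NPCs and 6 kb in tSBE6-Vp64. At a stricter level of 1.5 they covered 8 kb in NPCs and tSBE(6+2)-Vp64, 6 kb in eGFP and tSBE2-Vp64, 4 kb in tSBE6-Vp64 and 2 kb in tShh-Vp64. The peak tile, 0.475 to 2.47 kb inside the gene, had 2.49 in eGFP, 2.37 in tSBE2-Vp64, 1.80 in tSBE6-Vp64, 2.66 in tSBE(6+2)-Vp64, 2.02 in tShh-Vp64 and 3.09 in NPCs. Among the 2289 tiles of this size on the array it stood at the 97.2 percentile in tSBE6-Vp64 and up to the 99.3 percentile in tSBE2-Vp64, and at the 96.0 percentile in NPCs.

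The block was split by a dip at the 5′ end itself. Probes within 1 kb of it averaged 0.74 in eGFP, 0.68 in tSBE2-Vp64, 0.36 in tSBE6-Vp64, 0.89 in tSBE(6+2)-Vp64, 0.33 in tShh-Vp64 and 1.10 in NPCs. From 1 kb upstream to the tiled edge the ESC populations averaged 1.82 (SD 0.34, n = 5) and NPCs 2.45. From 1 to 5 kb inside the gene they averaged 1.64 (SD 0.24, n = 5) and 2.60. In all 6 conditions the value within 1 kb was thus below both flanks. The probes within 1 kb held 3.93 CpG on average and were 61.8% G or C, while those of the upstream flank held 0.486 CpG at 47.7% and those of the inner flank 1.06 CpG at 44.9%. These stretches were chosen after the profile had been seen and have no test.

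Beyond the block, the stretch that holds the RefSeq and Ptch1-201 starts averaged near 0 but was not uniform, since the bins of 500 bp from 5500 to 6499 bp, where probes held fewer CpG, had ESC means of 1.36 and 1.01. From 5 to 10 kb inside the gene as a whole, where probes were 61.2% G or C with 4.48 CpG on average, the ESC populations lay between -0.13 (tShh-Vp64) and 0.27 (tSBE(6+2)-Vp64), and NPCs at -0.12. Further in, from 10 kb to the gene's end, 677 probes averaged -0.70 (SD 0.08, n = 5) in the ESC populations and -0.77 in NPCs. Past the gene's end the means were -0.01 and -0.17.

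**Figure D2:**
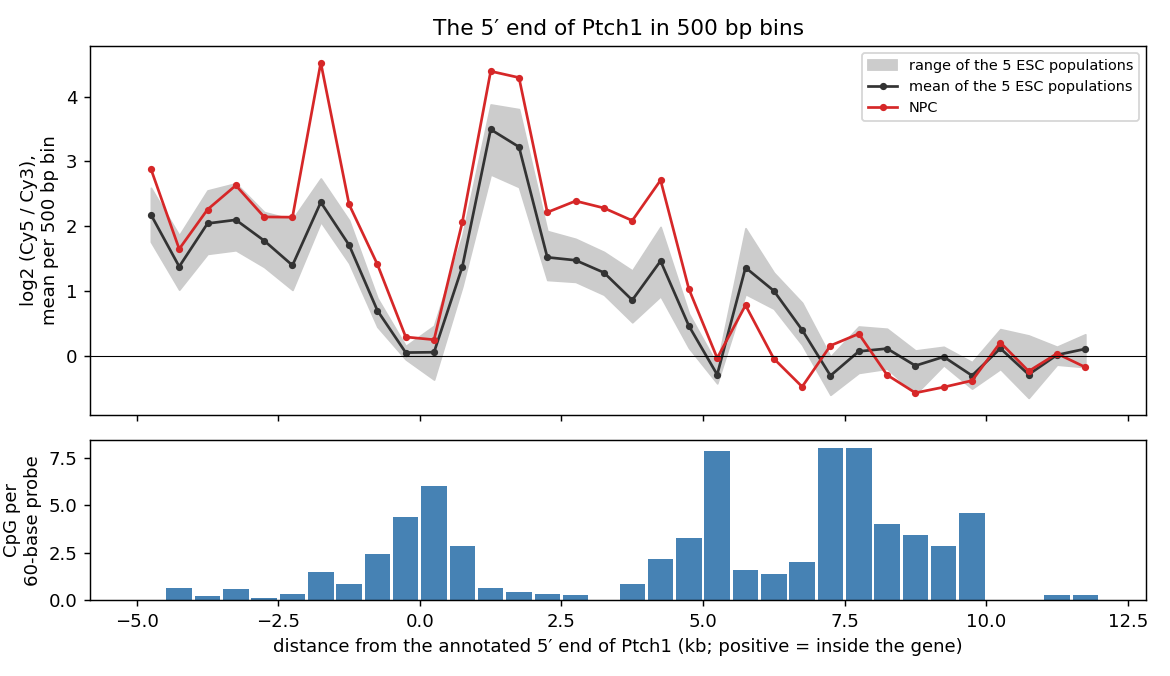
Upper panel, mean log2 (Cy5 / Cy3) per 500 bp bin (y axis) against the distance from the GENCODE 5′ end of Ptch1 in kb (x axis) for the mean (black line) and range (grey band) of the 5 ESC populations and for NPCs (red). Lower panel, mean CpG per 60-base probe in the same bins. The ratio dips at the 5′ end, where CpG counts are high, and NPCs lie above the ESC range from 500 bp to 5 kb inside the gene and below it from 5500 to 6999 bp.

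Probe composition moved with the values in the window around the 5′ end. The 22 probes of at most 40% G or C averaged 2.38 over the ESC populations and 3.54 in NPCs, the 66 between 40% and 55% averaged 1.53 and 2.23, and the 29 over 55% averaged 0.49 and 0.97. In the gene body the order was the opposite, with ESC means of -1.01, -0.63 and -0.27. Over the whole array the ESC means were -0.05, 0.12 and 0.18. The part of probe composition in the dip was not tested. With each array's GC trend removed, the 5′ window as a whole kept ESC values of 1.15 to 1.76 and an NPC value of 2.15. That setting removed the trend over the whole array, not that within the window, and was not read for the dip against its flanks.

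The 5′ end and the gene body were then compared as windows. The 117 probes within 5 kb of the GENCODE 5′ end averaged 1.66 and 1.46 on the R1 and R2 arrays of eGFP, 1.23 and 1.16 of tShh-Vp64, and 1.16 and 1.14 of tSBE6-Vp64. They averaged 1.50 and 1.53 for tSBE2-Vp64, 1.71 and 1.86 for tSBE(6+2)-Vp64, and 2.24 and 2.15 for NPCs. The order was NPC, tSBE(6+2)-Vp64, eGFP, tSBE2-Vp64, tShh-Vp64 and tSBE6-Vp64. The arrays of eGFP and tSBE2-Vp64 overlapped, and those of tShh-Vp64 and tSBE6-Vp64 nearly met without overlap. With 1 sample per condition, the order of such neighbours was not tested. The 731 probes of the gene body past this window averaged -0.60 in eGFP, -0.63 in tSBE2-Vp64, -0.64 in tSBE6-Vp64, -0.76 in tSBE(6+2)-Vp64, -0.58 in tShh-Vp64 and -0.72 in NPCs. The body values were all below 0, and NPCs lay within the range of the ESC populations.

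The 5′ window exceeded the body in 6 of 6 conditions. The difference was 2.16 in eGFP, 2.15 in tSBE2-Vp64, 1.79 in tSBE6-Vp64, 2.54 in tSBE(6+2)-Vp64, 1.77 in tShh-Vp64 and 2.91 in NPCs, with a mean of 2.22 (SD 0.44, n = 6). An exact two-sided sign-flip permutation test over the 6 conditions gave p = 0.03125, the smallest it can give with 6 samples. Of single probes, 55.8% (tSBE6-Vp64) to 69.1% (tSBE(6+2)-Vp64) of those in the window were above 1 in the ESC populations and 76.6% in NPCs, against 0.552% to 1.80% of those in the body and 11.1% to 19.6% over the array. These shares are over probes measured on both arrays, 100 to 113 of the 117 in the window. Below -1, which is the same limit with the ratio turned, were 0% of the window probes in the ESC populations and 0.935% in NPCs, against 20.3% to 36.2% of those in the body and 6.43% to 12.9% over the array. Of the 37 protein-coding genes on the array with enough probes in both windows, 27 had a higher 5′ window than body in the ESC mean, with a median difference of 0.28. With its window at the GENCODE 5′ end, Ptch1 had the highest of these differences in the ESC mean and also in NPCs. With the ratio turned it would have the lowest, at rank 37 of 37. The rank depends on the start, since centred on Ptch1-201 the mean excess over the 6 conditions was 1.11. Npas3 had 1.82 in the ESC mean and 1.25 in NPCs, and Sox6 1.67 and 2.20. The GENCODE 5′ window of Ptch1 alone ranked between 21 and 27 of 76 genes in each condition, and its body between 31 and 38 of 42. With the ratio turned these ranks would be 50 to 56 of 76 and 5 to 12 of 42.

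**Figure D3:**
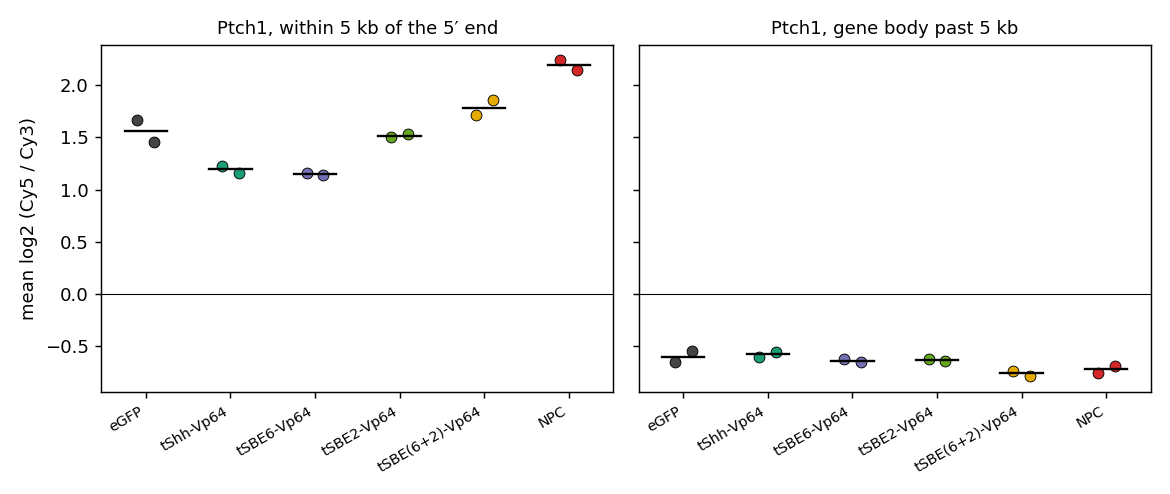
Mean log2 (Cy5 / Cy3) of the probes within 5 kb of the 5′ end of Ptch1 (left) and of the gene body past them (right) by condition on the x axis. Points are the 2 arrays (R1 left, R2 right) and bars their mean. The window values lie between 1.14 and 2.24 on all 12 arrays and the body values below -0.5.

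**Figure D4:**
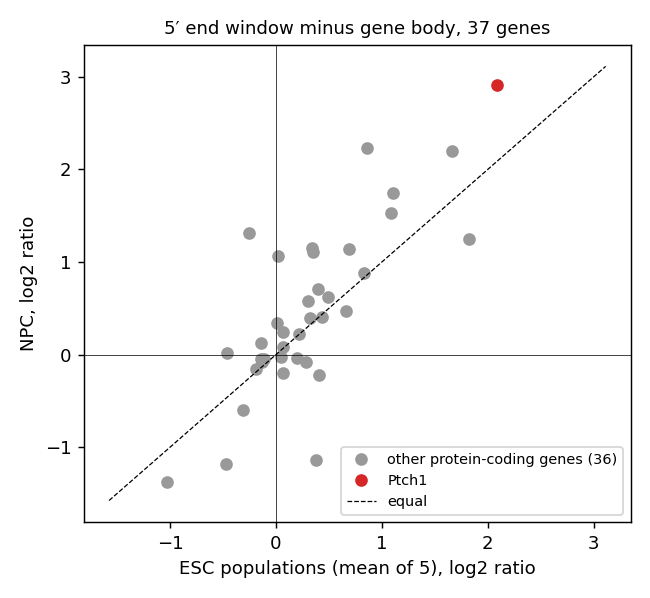
The 5′ window minus the gene body (log2 ratio) in the mean of the 5 ESC populations (x axis) and in NPCs (y axis) for 37 protein-coding genes, 1 point per gene, with the line of equality dashed. Ptch1 (red), with its window at the GENCODE 5′ end, has the highest value on both axes and lies above the line.

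NPCs had higher values than the ESC populations in the 5′ window and not in the gene body. In the window the NPC value of 2.19 lay above the ESC range of 1.15 to 1.78 and exceeded the ESC mean of 1.44 (SD 0.27, n = 5) by 0.75 (SE 0.20, 95% interval 0.35 to 1.15, limma adjusted p = 0.0015). Among the 76 genes with such a window, 53.9% were called higher in NPCs and 7.89% lower, and the median difference was 0.55, so Ptch1, at rank 33, was near the middle of the array's genes. In the body the difference was -0.08 (SE 0.14, 95% interval -0.37 to 0.21, limma adjusted p = 0.68), where 47.6% of 42 genes were called, 40.5% higher and 7.14% lower. The window changed relative to the body by 0.83 (SE 0.24, 95% interval 0.30 to 1.36, limma adjusted p = 0.022), the fourth highest of 37 genes, of which 32.4% were called higher. The lone NPC sample was assumed to vary like the ESC populations.

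The size of the NPC difference moved with the scaling and the slide. It was 0.19 (limma adjusted p = 0.22) after loess and scale normalization, 0.31 (0.10) with every array scaled to one median absolute deviation and 0.41 (0.13) with slide in the fit, which equals the difference from tSBE(6+2)-Vp64 on the same slide. With the deposited ratios it was 0.27 (0.010). The window minus body change fell to 0.10 (0.64), 0.23 (0.31) and 0.37 (0.33) under loess, scaling and slide. The NPC value exceeded that of the highest ESC population by 0.41, and by only 0.024 after loess, 0.088 with the deposited ratios and 0.13 under scaling.

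By tile of 5 kb, the called difference lay in the tile spanning the 5′ end, with the tile upstream close to the threshold. The tile spanning the 5′ end was 0.85 higher in NPCs (SE 0.21, limma adjusted p = 0.00915 over 963 tiles), and 1 of 17 Ptch1 tiles passed the threshold upwards, against 26.9% of all tiles. The upstream tile was 0.63 higher (SE 0.23) and did not pass (adjusted p = 0.054). No Ptch1 tile passed downwards, against 11.6% of all tiles. At 2 kb, 2 of 42 Ptch1 tiles were called higher, against 22.6% of 2289, and none lower, against 6.77%. They were the tile 2.48 to 4.47 kb inside the gene, at 1.09 (SE 0.19, limma adjusted p = 9.2e-04), and the peak tile, at 0.82 (SE 0.27, limma adjusted p = 0.037). The tile with the larger difference was thus on the inner slope of the block and not at its peak.

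The call of the tile spanning the 5′ end was lost after loess and scale normalization, under scaling to one median absolute deviation and with slide in the fit. In these 3 settings the tile called was instead the one at the Fancc end of the region, lower in NPCs with differences of -0.40, -0.40 and -0.68. The upstream tile also passed the threshold without tSBE(6+2)-Vp64 (0.73), without the R2 arrays (0.68) and with the GC trend removed (0.66). It did so with arrays as separate samples too (0.63), whether or not the replicate number was in the fit.

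In 500 bp bins NPCs crossed the ESC range within the gene. From 3500 to 3999 bp inside, the ESC mean was 0.86 and NPCs had 2.09, and from 4000 to 4499 bp 1.47 and 2.71. From 6000 to 6499 bp the order turned, with an ESC range of 0.73 to 1.28 and an NPC value of -0.04 over 5 probes. From 5500 to 5999 bp the ESC mean was 1.36 and NPCs had 0.78. These bins hold 5 to 8 probes each and were not tested.

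**Figure D5:**
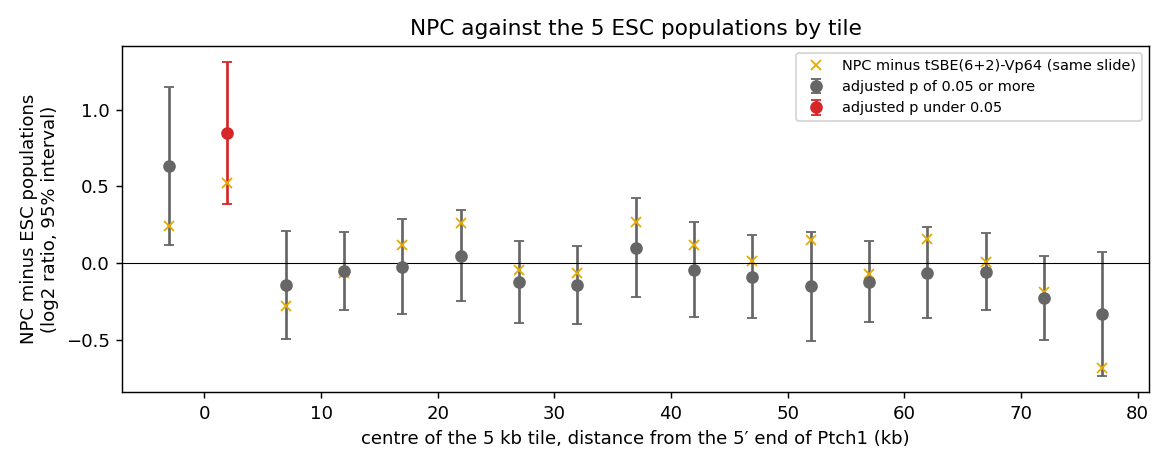
NPC minus the mean of the 5 ESC populations (y axis, log2 ratio) for the 17 tiles of 5 kb against the tile's distance from the 5′ end of Ptch1 in kb (x axis). Bars are 95% intervals from limma, red marks an adjusted p under 0.05, and crosses give NPC minus tSBE(6+2)-Vp64 on the same slide. The tile at the 5′ end, at 0.85, is the only red one, and its cross is lower, at 0.52.

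The choice of start set the size of the NPC difference. Centred on the start of Ptch1-201 the 5 kb window differed by 0.16 (limma adjusted p = 0.42), on that of Ptch1-204 by -0.01 (0.98) and on that of Ptch1-202 by -0.09 (0.66). The excess of window over body remained when centred on Ptch1-201 or Ptch1-204, with means of 1.11 and 0.87 over the 6 conditions and the same exact p of 0.03125. The windows around Ptch1-201 and Ptch1-204 both reach into the block at the 5′ end, that of Ptch1-204 less far.

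No difference between the TALE-Vp64 populations and eGFP was called at Ptch1. In the 5′ window tShh-Vp64 differed from eGFP by -0.37, tSBE6-Vp64 by -0.41, tSBE2-Vp64 by -0.05 and tSBE(6+2)-Vp64 by 0.22. Their mean difference was -0.15 (SE 0.21, 95% interval -0.60 to 0.30, limma adjusted p = 0.82), and within the first slide, without tSBE(6+2)-Vp64, it was -0.28. In the body it was -0.05 (SE 0.16, 95% interval -0.38 to 0.28, limma adjusted p = 0.99). By limma, 0 of 17 Ptch1 tiles and 0 of 963 tiles (0%) passed the threshold, while 11 of the 963 had an unadjusted p under 0.05. Over the 76 genes with a 5′ window the median difference was -0.14, so Ptch1, at rank 43, was near the middle here too. The lone eGFP sample was assumed to vary like the TALE-Vp64 populations. The interval leaves room for a change of up to 0.60 downwards or 0.30 upwards in the window, so the lack of a call does not show that there was none. The 2 populations with Vp64 at the Shh promoter or at SBE6 alone had the lowest window values and that with both enhancers targeted had the highest of the ESC populations. The last was also on the other slide, and slide and construct cannot be told apart there. Among the ESC populations the SD over all probes, with R1 and R2 averaged, was likewise lowest in tShh-Vp64 (0.88) and tSBE6-Vp64 (0.91) and highest in tSBE(6+2)-Vp64 (1.14). The part of this spread in the window values was not tested.

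Of 16 other hedgehog pathway genes listed, from the ligands through Smo and Sufu to the Gli factors, only Shh, a ligand gene, had enough probes at its 5′ end. Its window had 1.26 in eGFP, 1.06 in tSBE2-Vp64, 0.97 in tSBE6-Vp64, 1.39 in tSBE(6+2)-Vp64, 0.90 in tShh-Vp64 and 2.20 in NPCs. Ptch1 was higher in 5 of 6 conditions, by 0.27 on average (SD 0.16, n = 6), with -0.00397 in NPCs. An exact two-sided sign-flip permutation test gave p = 0.0625, where 0.03125 is the smallest it can give. The sign depended on the window, since within 1 kb of each 5′ end the mean difference was -0.96. The body of Shh was not low, with an ESC mean of 1.23 and 2.25 in NPCs, against -0.64 and -0.72 for Ptch1.

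The promoters with the pattern most like that of Ptch1, by root mean square difference over the 6 conditions among 74 genes outside its region, were those of Pax7 (0.18), Irf4 (0.22) and Sox6 (0.23). Pax7, a paired-box gene of the dorsal neural tube and of muscle precursors, had 1.29 to 1.74 in the ESC populations and was lower than Ptch1 in NPCs, at 1.80. Irf4, a lymphoid transcription factor, was higher in NPCs, at 2.49. Sox6 had 2.19 in NPCs, equal to Ptch1 at 2 decimals.

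Fancc has its 5′ end just inside the other edge of the region, where the tiling cuts its window short (57 probes). Within 5 kb of that end it had 0.50 in eGFP, 0.38 in tSBE2-Vp64, 0.30 in tSBE6-Vp64, 0.74 in tSBE(6+2)-Vp64, 0.55 in tShh-Vp64 and 0.20 in NPCs. The NPC value was below all ESC values, and the difference of -0.29 (SE 0.17, limma adjusted p = 0.15) did not pass the threshold. On the same slide NPCs differed from tSBE(6+2)-Vp64 by -0.54. The Fancc difference, which was not called, was thus opposite in sign to that of the 5′ window of Ptch1.

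The 5′ windows of listed marker genes were read as H3K27me3 and not as expression. Of 6 genes listed as ESC markers 5 were tiled and all 5 were higher in NPCs. One of them, Sox2, is not specific to ESCs, so its value does not tell the 2 cell types apart. The 5 differences were 1.26 (Sox2) to 2.62 (Fgf4), against a median of 0.55 over the 76 genes with such a window. Pou5f1, for example, had an ESC mean of -0.55 and 1.43 in NPCs, and Sox2 had 0.08 and 1.34. Of 5 NPC markers 3 were tiled, of which Nes (0.73 and -0.08) and Sox9 (1.33 and 0.77) were lower in NPCs and Pax6 (1.76 and 2.87) was higher. Gapdh had -0.69 and -0.72 and Actb -0.47 and -0.41.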

How the data were processed

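Per the labels, H3K27me3 ChIP and input DNA were labelled with Cy3 or Cy5 and hybridised together. The authors scanned the 2 dyes separately and deposited the spot intensity per probe and dye as Agilent Feature Extraction gave it (version 11.5.1.1, single-colour). They also deposited a table of normalized log2 ratios with R1 and R2 combined, used here as an alternative. The labels name limma as a processing tool, and how that table was normalized is not given in the sources used here, since the methods of the paper describe other arrays.

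From the processed signals a log2 ratio was taken per probe and the median of its array subtracted, with no loess, leaving out control spots and outlier marks (3 to 71 of the 986 probes per array). Probes were averaged within 5 kb of a gene's 5′ end, in the gene body beyond, and in tiles of 5 kb with at least 5 probes. Windows needed 10 probes. Probe positions and the GENCODE annotation are both mm9. Conditions were compared with limma 3.58.1 in R 4.3.3 (lmFit and eBayes, Benjamini-Hochberg over all genes or tiles, threshold 0.05), and by an exact sign-flip test within conditions. Alternatives were other normalizations, a brightness filter, a GC correction, slide or array number in the fit, other windows and tiles, and leaving out arrays or populations. The fits were tested on simulated data. The gene, the lists and the windows were chosen with earlier results of these data known. The genes named are those in the region, hedgehog genes with a window, and the 3 most alike promoters. The number of arrays limits the precision, and p-values measure the spread between these samples, not between replicates of a condition. In the main limma fits for NPCs this is the spread of the 5 ESC populations, which differ in construct and slide. In those against eGFP it is that of the 4 TALE-Vp64 populations.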

Additional observations from a re-analysis of the deposited data

Results flagged for a closer look

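In 20 quantities of the Ptch1 region (window, body, their difference and 17 tiles), 1 of the 5 ESC populations stood apart from the others in 4, where chance flags about 1 in 20. In the tile from 59.5 to 64.5 kb inside the gene tSBE(6+2)-Vp64 had -0.97 against -0.73 to -0.68 in the others, and in the tile from 19.5 to 24.5 kb -0.83 against -0.60 to -0.53. In the tile from 54.5 to 59.5 kb tShh-Vp64 had -0.76 against -0.95 to -0.93. In the tile from 9.47 to 14.5 kb tSBE2-Vp64 had -0.33 against -0.20 to -0.16. All 4 tiles lie in the body with values below 0. The tiles share arrays, so the flags are not independent. tSBE(6+2)-Vp64 was the only ESC population on the second slide and had the widest spread of log2 ratios among them, and slide and construct cannot be told apart there.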

How the results depend on the processing

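The excess of the 5′ window over the body of Ptch1 kept its sign in 19 of 19 alternatives, at 0.87 to 2.31. Leaving out 1 ESC population gave 2.16 to 2.31, and with 5 conditions the exact sign-flip test cannot go below 0.0625. The NPC difference in the window was above 0 in 21 of 23 alternatives and past the threshold in 16. It lost the call with loess and scale normalization (0.19), scaling of the arrays to one median absolute deviation (0.31), slide in the fit (0.41), a 1 kb window (0.50) and the start of Ptch1-201 (0.16), and turned with the starts of Ptch1-204 (-0.012) and Ptch1-202 (-0.089). Leaving out arrays or populations moved it between 0.68 and 0.84. The body difference turned to 0.0805 under loess, 0.0797 under scaling and 0.0419 with slide, and was called at -0.18 in the deposited ratios. The change of window relative to body was not called with loess (0.105), scaling (0.23), slide (0.37), windows of 1 kb (0.50) and 10 kb (0.50), or the starts of Ptch1-201 (0.22) and Ptch1-204 (0.0525). The cause of these changes was not tested.

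The number of called Ptch1 tiles was 6 with the deposited ratios (1 higher, 5 lower), 3 with the GC trend removed and 2 with 2 kb tiles. Leaving out arrays or populations gave 1 to 2. Over the array, 371 of 963 tiles were called at 5 kb, 672 of 2289 at 2 kb and 215 of 505 at 10 kb. The 259 higher and 112 lower tiles became 200 and 326 in the deposited ratios, in which the median difference over all tiles was -0.10, against 0.05. The TALE-Vp64 difference in the window kept its sign in 22 of 22 alternatives and was called in none, and that in the body turned only without the R2 arrays (-0.12 to 0.00832 over R1 and R2 left out). The difference from the Shh window was called, with Ptch1 higher, under loess (0.29), bright probes only (0.36), the GC trend removed (0.30), the median over probes (0.38), and without the R2 arrays (0.26). With the 1 kb window it was called in the opposite direction, with Shh higher (-0.96, exact sign-flip p = 0.03125). It also turned with the 10 kb window (-0.0523), where it was not called. Leaving out arrays or populations gave 0.23 to 0.29.

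Deviations of same-numbered arrays correlated at -0.25 to 0.43 over 15 pairs of conditions. Whether the replicate numbers R1 and R2 pair the samples was not tested. With arrays as separate samples, the number of called Ptch1 tiles was 4 without and 3 with the replicate block, and that of all tiles 558 and 539. The NPC difference in the window was 0.75 with the replicate block, and no call of a window changed.

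The array has no read depth. On slide 2 only tSBE(6+2)-Vp64 can be set beside NPCs.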
